A study of Mus musculus with 3 samples.

Results

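Paneth cells, the granule-filled cells at the base of the small intestinal crypts, were taken as the cells in which all rows named Defa summed to 1500 or more UMIs per 10000 UMIs of the cell. A UMI (unique molecular identifier) tags 1 captured RNA molecule. The rule found 489 of 12653 cells: 109 of 4106 in AOS0, 189 of 3195 in B+A0 and 191 of 5352 in B+A10. All mice were male ICR mice, an outbred stock, 3 weeks old at the start. AOS0 mice were the controls and received water by gavage for 2 weeks, with no busulfan. B+A0 mice received 1 injection of busulfan (40 mg/kg), an alkylating drug that damages dividing cells, and water from the next day on. B+A10 mice received the same injection of busulfan and then alginate oligosaccharides (AOS, 10 mg/kg) in the gavage. Small intestinal cells of 6 mice of a group were pooled before capture, so each group was 1 library, a cell could not be traced to its mouse, and no test of a difference between groups was possible. Ranges in parentheses after a value are 95% intervals of the counting error alone. The groups follow the title, treatment and column prefix of each sample, since the source name of the B+A0 library gives a group that is not among these and that of the B+A10 library reads B+A0.

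Paneth cells secrete microbicidal peptides and enzymes into the crypt lumen. The alpha-defensins (cryptdins), encoded in mice by a cluster of near-identical genes, are their most abundant product, and mouse pro-defensins are cleaved to the active form by the matrix metalloproteinase Mmp7. Lysozyme (Lyz1), the ribonuclease Ang4 and several lectins accompany them, and the cells also display signals that maintain the neighbouring stem cells.

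The alpha-defensin genes lie in 1 cluster, and 16 of them, Gm15293 included, span chr8:21025545-21735471 of GRCm38. Because the results turn on which defensins a cell holds, the promoters of 4 of them are printed, each from 250 bases before to 50 bases after the annotated start (RefSeq, GRCm38.p6). Defa35 (chr8:21064788-21065087, + strand) and Defa37 (chr8:21565136-21565435, + strand) are shown because their shares went together from cell to cell. Defa22 (chr8:21162027-21162326, + strand) and Defa42 (chr8:21456468-21456767, - strand), the RefSeq name of the row Gm7849, are shown because nearly all of their UMIs came from 1 library. Mptx1 (chr1:174330268-174330567, + strand) and Mptx2 (chr1:173277707-173278006, - strand), a pair of mucosal pentraxins, are shown because, between members of the lowest and of the highest defensin content, their levels went opposite ways. Capitals mark the TATA box letters TATAAA and the core of a TCF/LEF site, CTTTGA, on either strand.
Defa35: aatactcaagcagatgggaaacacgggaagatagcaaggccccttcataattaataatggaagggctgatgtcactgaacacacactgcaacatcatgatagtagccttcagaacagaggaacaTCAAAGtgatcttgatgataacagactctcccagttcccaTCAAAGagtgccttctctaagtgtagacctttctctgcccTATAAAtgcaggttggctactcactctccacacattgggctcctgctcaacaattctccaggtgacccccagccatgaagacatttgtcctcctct
Defa37: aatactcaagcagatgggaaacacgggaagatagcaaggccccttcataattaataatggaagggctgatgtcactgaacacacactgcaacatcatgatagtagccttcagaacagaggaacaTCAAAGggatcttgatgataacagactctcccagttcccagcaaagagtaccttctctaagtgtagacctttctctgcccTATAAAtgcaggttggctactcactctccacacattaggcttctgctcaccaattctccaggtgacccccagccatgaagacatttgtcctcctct
Defa22: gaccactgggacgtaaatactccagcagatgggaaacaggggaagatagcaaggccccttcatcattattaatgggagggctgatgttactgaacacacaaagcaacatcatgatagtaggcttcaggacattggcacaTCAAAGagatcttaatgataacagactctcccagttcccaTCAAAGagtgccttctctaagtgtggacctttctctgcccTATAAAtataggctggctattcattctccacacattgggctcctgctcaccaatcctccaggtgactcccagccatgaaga
Defa42 (Gm7849): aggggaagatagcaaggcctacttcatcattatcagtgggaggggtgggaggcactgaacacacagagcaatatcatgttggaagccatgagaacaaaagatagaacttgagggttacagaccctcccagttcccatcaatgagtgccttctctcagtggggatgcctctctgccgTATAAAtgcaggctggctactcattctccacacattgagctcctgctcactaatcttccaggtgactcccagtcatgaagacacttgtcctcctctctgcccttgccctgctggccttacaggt
Mptx1: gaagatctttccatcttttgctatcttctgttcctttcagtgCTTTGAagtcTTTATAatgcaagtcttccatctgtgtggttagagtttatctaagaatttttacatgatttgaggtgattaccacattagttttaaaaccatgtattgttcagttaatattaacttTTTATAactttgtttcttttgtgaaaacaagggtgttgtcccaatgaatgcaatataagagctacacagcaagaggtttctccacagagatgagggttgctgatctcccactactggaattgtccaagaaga
Mptx2: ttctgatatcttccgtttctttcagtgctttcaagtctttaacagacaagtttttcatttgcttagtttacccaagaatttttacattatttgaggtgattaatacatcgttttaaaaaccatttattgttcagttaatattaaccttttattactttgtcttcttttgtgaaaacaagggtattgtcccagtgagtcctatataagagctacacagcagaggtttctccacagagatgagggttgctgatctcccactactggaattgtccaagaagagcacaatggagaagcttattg

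TATAAA was found in 15 of the 16 alpha-defensin promoters in the table and CTTTGA in 13, while 13.6% and 16.0% of all 32851 promoters of this length held them. 12 of the 16 defensin promoters held both, as did 2.69% of all promoters. Defa35 and Defa37 differed at 6 of 300 aligned positions, and the 300 bases of Defa21 and Defa22 were the same. Defa42 and Defa38 (Gm14851), which share 292 of 300 positions, held TATAAA at 74 bases before the start and no match to CTTTGA. Mptx1 held 1 match to CTTTGA and 2 to TATAAA, both on the other strand (TTTATA), at 198 and 82 bases before the start. Mptx2 held neither in this window. Both promoters hold the unmarked letters atataag nearer the start. The transcripts are also alike: those of Defa21 and Defa22 differed at 3 of 419 aligned positions and those of Defa35 and Defa37 at 10 of 403, so the division of UMIs within such a pair is uncertain.

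**Figure D1:**
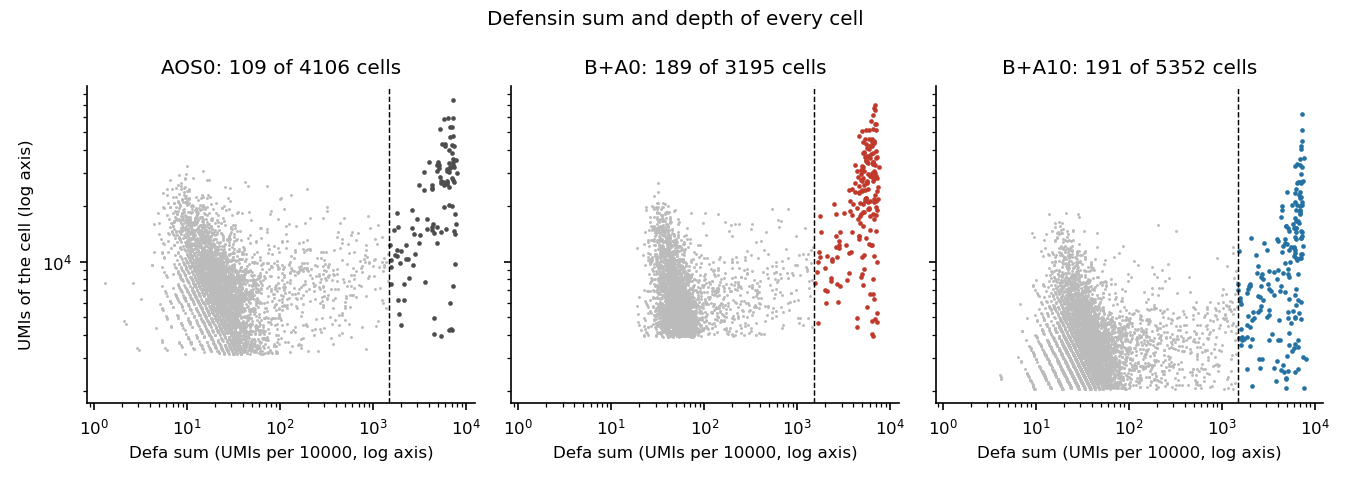
Defensin sum of every cell (horizontal, UMIs per 10000, log axis) against its UMIs (vertical, log axis), 1 panel per library, with Paneth cells in colour, other cells in grey and the threshold of 1500 as a dashed line. The Paneth cells form a column of deep cells to the right of the other cells, with sparser cells between.

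Of all cells of a library, Paneth cells made up 2.65% (2.18 to 3.19) in AOS0, 5.92% (5.12 to 6.79) in B+A0 and 3.57% (3.09 to 4.10) in B+A10. The interval of B+A0 did not overlap the others, but the share was set by the rule and by which cells were kept. Cells had passed a 40 µm filter, and the shallowest other cell held 3155, 3929 and 2051 UMIs in AOS0, B+A0 and B+A10. Just inside the threshold the lowest members had sums of 1520.2, 1555 and 1511, and just outside it the highest other cells had 1442, 1461 and 1471, so there was no gap at the cut. The 5% of cells with the highest doublet scores of each library included 3, 9 and 3 members. 82 barcodes occurred in more than 1 library, 8 of them on members, and no barcode was a member in more than 1.

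Paneth cells were the RNA-rich cells of each library and held mostly defensin RNA. Their median UMI count was 20042 in AOS0, 21667 in B+A0 and 8595 in B+A10, against 7294, 6242 and 3455 in all other cells. B+A10 was thus the shallowest library in both kinds of cell. The defensin rows (20 named Defa, with Gm14851, Gm15292, AY761184 and Gm7849) took 59.5, 58.7 and 61.4 percent of the UMIs of members. Outside the members they took 0.526, 0.894 and 0.742 percent, and the median other cell held a Defa sum of 22.3, 51.0 and 35.1 UMIs per 10000, so defensin RNA was counted at a low level in cells of other kinds. Members held 89.8, 93.3 and 89.96 percent of all defensin UMIs of their library. Unthinned, a member showed a median of 1969, 2368 and 1374 genes and another cell 2213, 1986.5 and 1359, and thinned to 1000 UMIs the medians were 241, 262 and 274 and 601, 588 and 590. Thinning kept the defensin rows, which the rule set high in members, so these medians do not compare the other RNA of the cells.

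The defensin mixture was led by Defa24 in every library. Defa24 gave 49.7%, 45.3% and 40.5% of the defensin UMIs of members in AOS0, B+A0 and B+A10. Defa30 went the other way, with 14.0%, 16.9% and 19.1%, and so did Defa17, with 11.8%, 12.8% and 14.5%. Defa24 was therefore lowest, and Defa30 and Defa17 highest, in B+A10. Defa29 (8.67%, 7.95% and 6.67%), Defa35 (6.19%, 7.08% and 5.54%), AY761184 (4.19%, 3.65% and 3.60%), Defa37 (2.88%, 3.001% and 2.62%) and Defa5 (0.681%, 1.16% and 1.19%) made up most of the rest. The spread over cells was wider than these steps between libraries: the share of Defa24 ran from 41.5% at the 10th percentile of AOS0 members to 77.6% at the 90th, and from 33.0% to 69.1% in B+A10. In the other cells the defensin UMIs were 72.9%, 65.7% and 65.4% Defa24 and 5.11%, 5.90% and 7.17% Defa30.

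Cells with more defensin held a broader mixture. In cells with a Defa sum of 500 to below 1500, which fall outside the rule, Defa24 made up 79.7%, 70.5% and 72.1% of defensin UMIs in AOS0, B+A0 and B+A10. In members with a sum of 5000 or more it made up 48.9%, 45.2% and 39.2%. Defa35 made up 0.633%, 1.32% and 1.02% in the first of these bands and 6.70%, 7.35% and 6.01% in the last. Defa30 stood at 2.82%, 5.27% and 5.51% and then at 14.7%, 17.5% and 20.3%. Defa17 made up 11.3% to 22.2% in every band of every library. Defa24 and Defa17 thus led in cells of low defensin content, and Defa30 and Defa35 took a larger share in cells of high content.

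**Figure D2:**
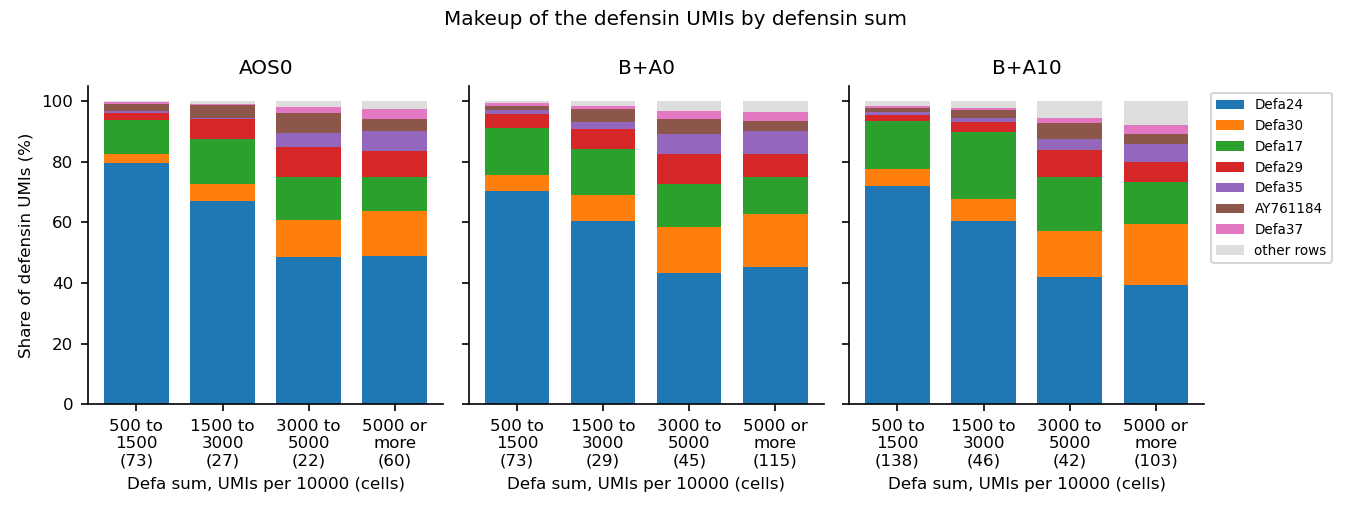
Share of defensin UMIs (vertical, %) given by 7 rows and by all other rows, in bands of the Defa sum (horizontal, number of cells in parentheses), 1 panel per library. Defa24 takes 79.7% in the lowest band of AOS0 and 48.9% in the highest, and the band of 500 to 1500 lies outside the rule.

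Across members of 1 library, the shares of Defa35 and Defa37 had Spearman correlations of 0.98, 0.98 and 0.97 in AOS0 (109 cells), B+A0 (189 cells) and B+A10 (191 cells). Defa35 and Defa5 had 0.93, 0.90 and 0.85, and Defa29 and AY761184, whose transcripts are 96.1% identical, had 0.63, 0.62 and 0.65. Defa24 and Defa29 had -0.76, -0.68 and -0.61. These cells share a library, the shares of a cell sum to the whole and near-identical transcripts can share reads, so the values are descriptions. The shares of Defa35, Defa37 and Defa5 also rose with the Defa sum in every library. In AOS0 they were 0.627%, 0.301% and 0.0804% at sums of 1500 to below 3000 and 6.70%, 3.14% and 0.742% at 5000 or more. No correlation was taken within a band.

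A subset of members of B+A10 held defensins that were all but absent from the other libraries. Gm7849 (Defa42) had 5, 14 and 18118 UMIs in all members of AOS0, B+A0 and B+A10. No member of AOS0 or B+A0 had more than 0.00849% of its defensin UMIs from it. In B+A10, 30 of 191 members (15.7%) had 2% or more, from 2.24% to 11.2%, and the next highest had 1.35%. These 30 cells were chosen after their values were seen. They held 92.0% of the Gm7849 UMIs of that library. Defa21 had 3, 10 and 12632 UMIs in members of AOS0, B+A0 and B+A10, and Defa22 had 57, 325 and 13816. Defa20 had 6, 18 and 2616 and Defa3 194, 335 and 2362. Defa21 passed 1% of defensin UMIs in 14 of the 30 cells and in 0 of the other 161, and Defa22 in 17 and 0. The genes are spread over the cluster, with Defa21 at chr8:21025545-21026516, Defa22 at chr8:21162277-21163249, Gm7849 at chr8:21455445-21456560 and Defa20 at chr8:21509258-21510237, and other defensin genes lie between them.

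The 30 cells differed from the other members of B+A10 in other Paneth genes too, by unequal amounts. Their Lyz1 level was 465 against 443 UMIs per 10000 UMIs of the RNA that remained once the defensin rows were left out (called the rest from here on). Ang4 stood at 206 against 251, Clps at 37.3 against 50.1 and Mmp7 at 15.3 against 27.1. The lipase gene Pnliprp2 had the lowest ratio, from 4 and 98 UMIs, with a log2 ratio of -2.31 (-4.22 to -0.91). Mptx2 stood at 68.8 against 185, a log2 ratio of -1.43 (-1.52 to -1.34), and Mptx1 at 194 against 94.5, a log2 ratio of 1.03 (0.97 to 1.10). Both pentraxin genes thus differed in these cells, in opposite directions. Among 905 genes with 100 or more UMIs in members of B+A10, 6.08% lay past 1.5-fold between both sets of cells, and Gm15293 (Defa41 in RefSeq) had the highest ratio, from 58 and 76 UMIs. Gm14851 (Defa38), whose promoter sequence matches that of Gm7849 at 292 of 300 positions, had a median of 2.18% of defensin UMIs in the 30 and 0.226% in the others. 0 of the 30 cells were among the highest 5% of doublet scores.

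**Figure D3:**
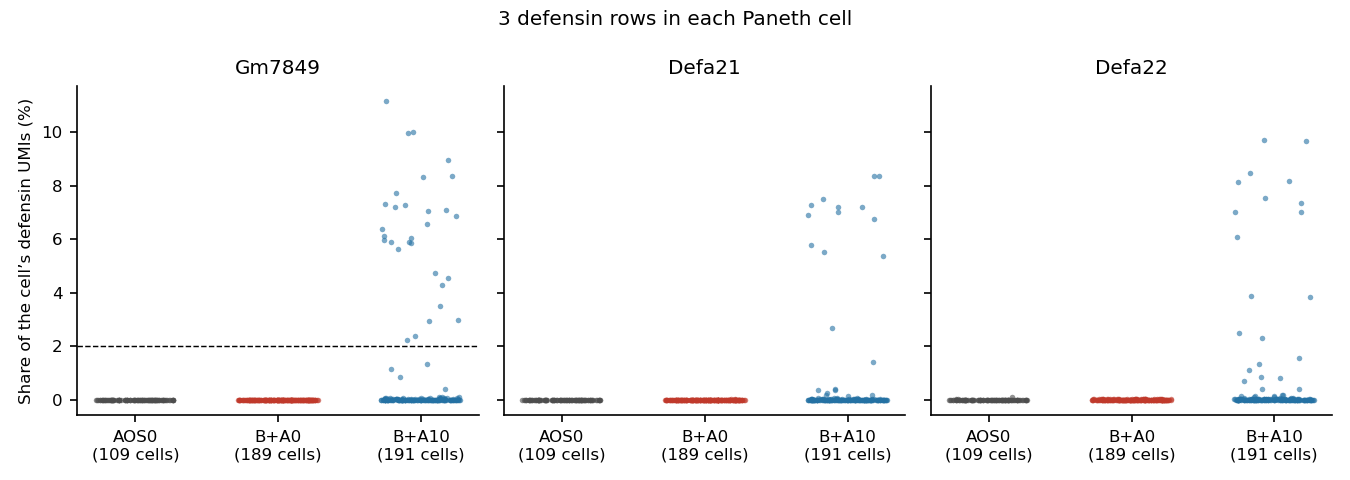
Share of a cell's defensin UMIs (vertical, %) given by Gm7849, Defa21 and Defa22 in every Paneth cell of each library (points, spread sideways at random), with the 2% line for Gm7849. The cells that stand clear of 0 are in B+A10, and 30 of its 191 members lie above the line.

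With the defensins left out, the genes that set the members apart were led by known Paneth genes. Ranked by the mean log2 ratio of members to all other cells over the 3 libraries, the first 10 were Mptx2 (417-fold), Gif (258-fold), Ang4 (239-fold), Lyz1 (153-fold), Clps (80.4-fold), Pnliprp2 (70.4-fold), Itln1 (45.2-fold), Mmp7 (32.8-fold), Habp2 (31.6-fold) and Tmed6 (27.8-fold). Gif encodes the vitamin B12 carrier intrinsic factor, Clps colipase, Pnliprp2 a lipase, Itln1 the microbial glycan-binding lectin intelectin-1 and Habp2 a serine protease. The fold of Gif rests on few UMIs, with 102, 142 and 57 in members of AOS0, B+A0 and B+A10 and 9, 9 and 5 in other cells. Gif was seen in 29.4%, 29.1% and 16.2% of members. The next 10 were Bambi, Nupr1, Mptx1, Gadd45g, Reg4, Lbh, Cd24a, Retnlb, Nucb2 and Spink4, from 26.2-fold to 7.19-fold. Gm15293, another defensin of the cluster that the rule did not leave out, had 48, 139 and 134 UMIs in members and 1, 5 and 5 in other cells. No ratio was given for a gene with 3 or fewer UMIs in the other cells of a library. These folds describe cells that were chosen by their defensins. Of the 4 marker genes of Paneth cells that the rule did not use, Lyz1 stood at 3.13, 6.24 and 3.22, Ang4 at 1.05, 2.36 and 1.11, Mmp7 at 1.19, 1.36 and 0.657 and Mptx2 at 0.908, 1.03 and 0.408 UMIs per 10000 of the rest in the other cells of AOS0, B+A0 and B+A10, so they were counted at a low level outside the members as well.

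The label did not hold equally well over the whole range of the rule. Of members with a Defa sum of 1500 to below 3000 (27, 29 and 46 cells in AOS0, B+A0 and B+A10), 16, 17 and 29 met the rule used for goblet cells (100 or more UMIs per 10000 from Muc2, Fcgbp, Clca1 and Zg16 together), against 0, 3 and 4 of the 60, 115 and 103 members with 5000 or more. Zg16, a lectin of goblet cell granules, stood at 438, 368 and 356 UMIs per 10000 of the rest in the lower band and at 29.5, 102 and 88.7 in the upper. The trefoil peptide Tff3 stood at 656, 613 and 699 and then at 74.7, 149 and 174, and the mucin Muc2 at 70.5, 68.9 and 68.1 and then at 13.4, 16.3 and 16.8. Members of low defensin content thus carried goblet and Paneth genes together, and those of 1500 to 3000 are better described by their rule than by the name.

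The Paneth genes ran the other way over the same bands. Lyz1 stood at 84.7, 111 and 59.95 in the lower band of AOS0, B+A0 and B+A10 and at 1264, 785 and 703 in the upper. Ang4 stood at 18.1, 16.1 and 8.60 and then at 714, 486 and 415, and Mptx2 at 12.5, 21.3 and 6.76 and then at 841, 376 and 270.4. Mmp7 differed least of these, from 28.02, 18.8 and 10.2 to 46.3, 38.3 and 35.2. Mptx1 was an exception: it was higher in the lower band (411, 231 and 147) than in the upper (201, 93.2 and 78.5), although its transcript is 91.9% identical to that of Mptx2. Retnlb, which encodes a resistin-like antimicrobial protein, was also higher in the lower band, with 224, 256 and 309 against 143, 150.02 and 139. So were Reg4 (54.2, 32.9 and 35.8 against 45.3, 18.9 and 28.5) and Spink4 (785, 774 and 1025 against 551, 480 and 640).

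**Figure D4:**
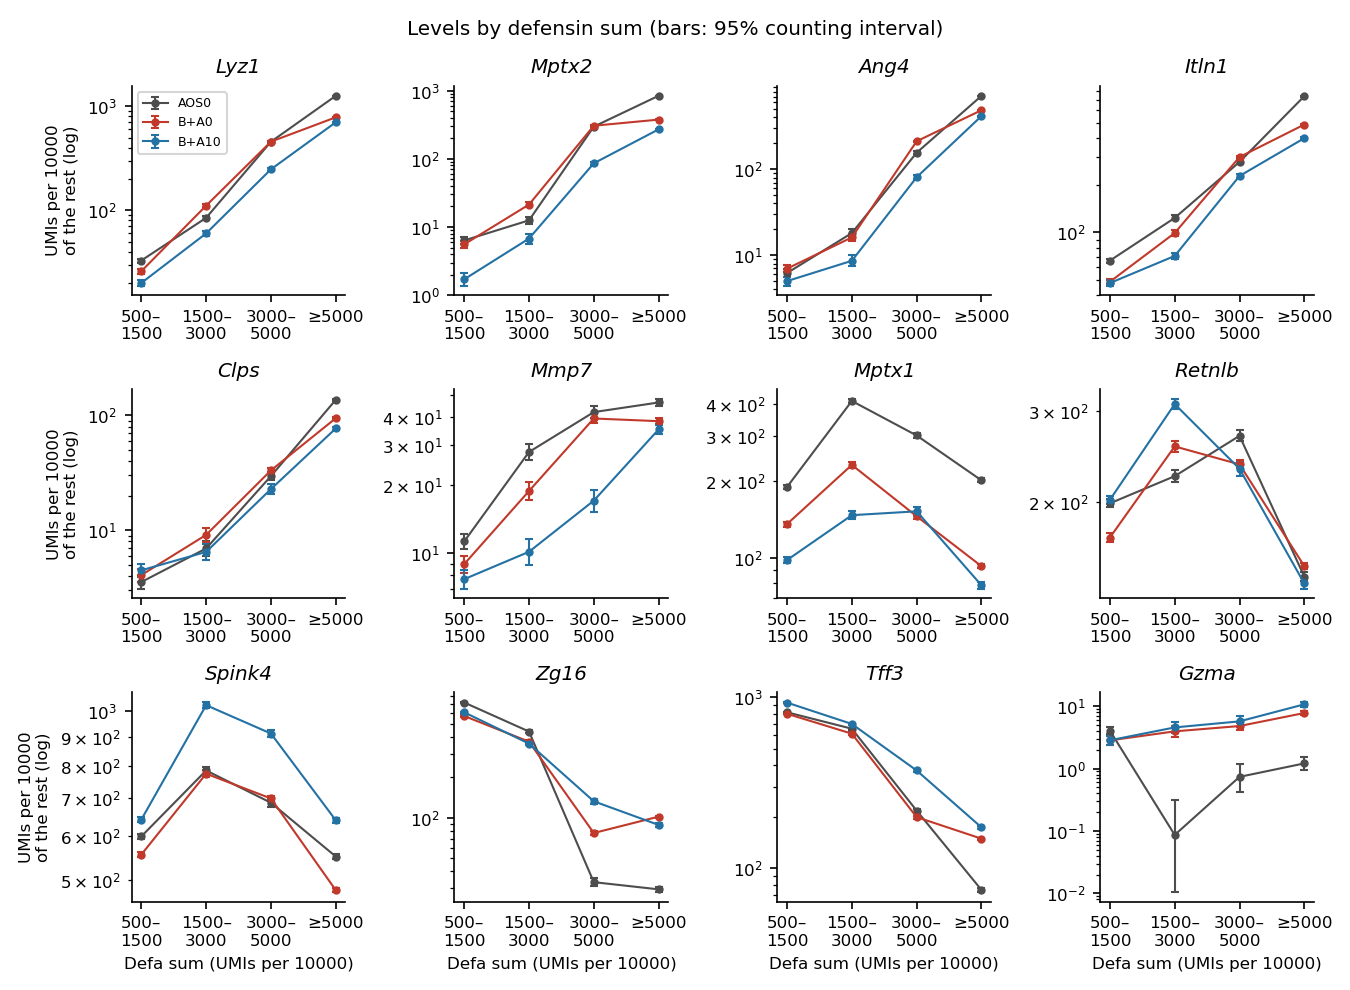
Levels of 12 genes (vertical, UMIs per 10000 of the rest, log axes that do not start at 0) in bands of the Defa sum (horizontal), with a line per library and 95% counting intervals. Lyz1, Mptx2, Ang4, Itln1 and Clps climb with the defensin sum, while Tff3 descends and Mptx1 is lower in the top band than in the band of 1500 to 3000 in every library.

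B+A0 was set against AOS0 to see how Paneth cells stood after busulfan. Of the granule genes, the pentraxins and Reg4 were lowest relative to the controls. Mptx2 stood at 534 (529 to 538) and 314 (311 to 316), a log2 ratio of -0.77. Mptx1 stood at 271 (267 to 274) and 124 (122 to 126), a log2 ratio of -1.12. Reg4, a C-type lectin, stood at 50.7 and 25.0, a log2 ratio of -1.02 (-1.08 to -0.96). Lyz1 (819 and 616), Itln1 (498 and 390.2), Ang4 (433 and 356), Clps (83.6 and 67.9) and Mmp7 (41.3 and 36.2) were lower by less than 1.5-fold, with log2 ratios from -0.41 to -0.19. These 8 genes were thus all lower in B+A0, by unequal amounts, whereas Pnliprp2 stood at 1.71 (1.47 to 1.98) and 1.89 (1.69 to 2.09), with overlapping intervals.

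Over 961 genes with at least 300 UMIs in the members of both libraries together, 12.8% were past 1.5-fold higher in B+A0 and 1.35% lower, 14.2% in all, and the median log2 ratio was 0.18. Of 16 antimicrobial genes besides defensins, 11 could be compared: 3 were past 1.5-fold higher, 2 lower and the median was -0.19. The 3 were Reg3b (88.7 and 146), Reg3a (0.677 and 1.28) and Reg1 (1.46 and 2.61), C-type lectins that enterocytes also make, and in the other cells Reg3b stood at 257 and 256. The metal-binding metallothionein Mt2 stood at 2.22 and 0.969 (-1.20), and Sval1 at 2.96 and 1.14 (-1.37). 0 of 6 goblet markers were past 1.5-fold in either direction, with a median of -0.02, but in members with a Defa sum of 5000 or more Zg16 stood at 29.5 and 102 and Tff3 at 74.7 and 149.

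Enterocyte, T cell and enteroendocrine RNAs were higher in the members of B+A0 and of B+A10 than in those of AOS0. The 7 enterocyte markers, all detected, summed to 55.1, 162 and 133 UMIs per 10000 of the rest in members of AOS0, B+A0 and B+A10, against 198, 199 and 227 in other cells. The 6 T cell markers, all detected, summed to 1.46, 10.7 and 13.05 in members and 5.1998, 5.88 and 8.26 in other cells. In members with a Defa sum of 5000 or more the enterocyte sum was 69.4, 193 and 176 and the T cell sum 2.01, 12.9 and 17.5, so both were unequal there too. The 10 highest ratios of B+A0 to AOS0 were those of Ccl5, Gzma, Cd7, Apoc3, Ces2e, Gip, Apob, Apoa4, Ggt1 and Apoa1, genes of lymphocytes, enterocytes and, for Gip, enteroendocrine cells. Ccl5 stood at 1.83 and 14.3 and Apoa1 at 13.9 and 48.5. These UMIs were spread over the members: with the rest of each cell thinned to 1000 UMIs, which left out 1, 0 and 6 members, the granzyme gene Gzma was seen in 9.26%, 48.7% and 49.7% of members and in 6.08%, 16.3% and 18.4% of other cells (unthinned, in 48.6%, 92.1% and 81.2% of members). The tenth of members richest in T cell marker UMIs held 39.1%, 26.8% and 41.9% of them. Enteroendocrine markers summed to 0.416, 1.63 and 1.51, with Neurod1 and Tph1 at 0 in AOS0. Stem cell, cycling and goblet markers did not share this order: they summed to 10.1, 11.9 and 9.92, to 3.42, 3.35 and 2.46 and to 1049, 978 and 1381. Red blood cell markers (0.0967, 0.154 and 0.127) and tuft cell markers (0.0193, 0.0530 and 0.0230) did share it, from few UMIs. So did the sums of antigen presentation and interferon genes (58.9, 66.4 and 68.1) and of immediate early and heat shock genes (10.7, 14.7 and 16.8). The 2 plasma cell markers in the table were at 0 in members of AOS0 and B+A0, and 4 of 5 tuft cell markers were at 0 in AOS0.

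Those RNAs enter the total to which the granule genes were scaled, and their part in the lower levels was not tested. Ratios within the members do not use that total. Per 100 UMIs of Lyz1 there were 52.9, 57.8 and 54.5 UMIs of Ang4, 60.8, 63.3 and 62.9 of Itln1 and 10.2, 11.03 and 10.7 of Clps in AOS0, B+A0 and B+A10. Mptx2 gave 65.1, 50.9 and 37.1 and Mptx1 33.0, 20.1 and 24.9, so the pentraxins stood lower in both busulfan libraries against Lyz1 as well. Reg4 gave 6.18, 4.06 and 7.06, and Spink4, a protease inhibitor gene of goblet and Paneth cells, 77.4, 93.2 and 178. Cd24a (1.61, 1.97 and 2.42) and Nupr1 (1.01, 1.24 and 1.25), whose levels per 10000 of the rest were lower in B+A0 and B+A10, were higher there against Lyz1. The defensin rows together gave 1795, 2307 and 3555 UMIs per 100 of Lyz1.

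B+A10 was set against B+A0 to see how Paneth cells stood when AOS followed busulfan. Most of the granule and lipase genes were lower in B+A10. Lyz1 stood at 616 (612 to 619.5) and 447 (442 to 451), Ang4 at 356 (353 to 359) and 243 (240.0 to 247) and Itln1 at 390.2 (387 to 393) and 281 (277 to 284). Mptx2 stood at 314 (311 to 316) and 166 (163 to 168). Clps (67.9 and 48.0), Mmp7 (36.2 and 25.2) and Pnliprp2 (1.89 and 1.17) were lower as well. Mptx2 and Pnliprp2 were past 1.5-fold, with log2 ratios of -0.92 (-0.95 to -0.89) and -0.68 (-1.02 to -0.36), and in the other cells Mptx2 had -1.33. Mptx1 was lower by less (124 and 111), and Reg4 went the other way, from 25.0 to 31.5. Lyz1, Ang4, Itln1, Clps, Mmp7, Mptx1, Mptx2 and Reg4 all stood below the AOS0 level in B+A10, while scaled to the sum of Lyz1, Ang4, Itln1, Clps and Mmp7 the log2 ratio of Reg4 to AOS0 was 0.16.

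Over 953 genes, 2.2% were past 1.5-fold higher and 0.944% lower in B+A10, 3.15% in all, with a median log2 ratio of -0.01. Scaled to all UMIs with the defensins included, 9 genes were past 1.5-fold higher and 21 lower in place of 21 and 9, with a median of -0.10. The antimicrobial list had 1 of 11 lower, 0 higher and a median of -0.34. Over all members goblet genes were higher: all 6 markers lay between 0.35 and 0.66, with Tff3 (219.6 and 347) past 1.5-fold. Members with a Defa sum of 1500 to below 3000, where goblet genes were highest, made up 15.3% of members in B+A0 and 24.1% in B+A10. In members with a sum of 5000 or more, Tff3 stood at 149 and 174, but Zg16 was lower in B+A10 (102 and 88.7, log2 ratio -0.20), and Fcgbp (20.1 and 19.3) and Muc2 (16.3 and 16.8) stood close in both. The highest ratio was that of the interferon-inducible gene Ifi27l2b (2.63 and 14.3), with a log2 ratio of 2.45 in members and 2.22 in other cells. Of 82 rows with names of ribosomal protein genes, 6 were past 1.5-fold higher and none lower, around a median of 0.04. That list was taken by name and holds the pseudogene row Rpl34-ps1, its highest at 0.91, with 0.47 in other cells. Rps27rt (0.75) and Rps28 (0.68) had 0.64 and 0.45 in other cells.

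In members with a Defa sum of 5000 or more, where goblet genes were lowest, Lyz1, Ang4, Itln1, Clps, Mmp7, Mptx1 and Mptx2 were again highest in AOS0 and lowest in B+A10. There Lyz1 had log2 ratios of -0.69 for B+A0 to AOS0 and -0.16 for B+A10 to B+A0, against -0.41 and -0.46 over all members. Mptx2 had -1.16 and -0.48 in place of -0.77 and -0.92. For these 2 genes and for Ang4, Itln1, Clps and Mmp7 the step between B+A0 and AOS0 was larger and that between B+A10 and B+A0 smaller in these cells. Mptx1 did not follow, with -1.11 and -0.25 in place of -1.12 and -0.16. B+A10 against AOS0, which shares its libraries with the comparisons above, had 14.5% of 615 genes past 1.5-fold, 12.5% higher and 1.95% lower. There 6 of 10 antimicrobial genes were lower, 1 was higher (Reg1) and the median was -0.77 against 0.19 over all genes, with Mptx2 at -1.69.

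**Figure D5:**
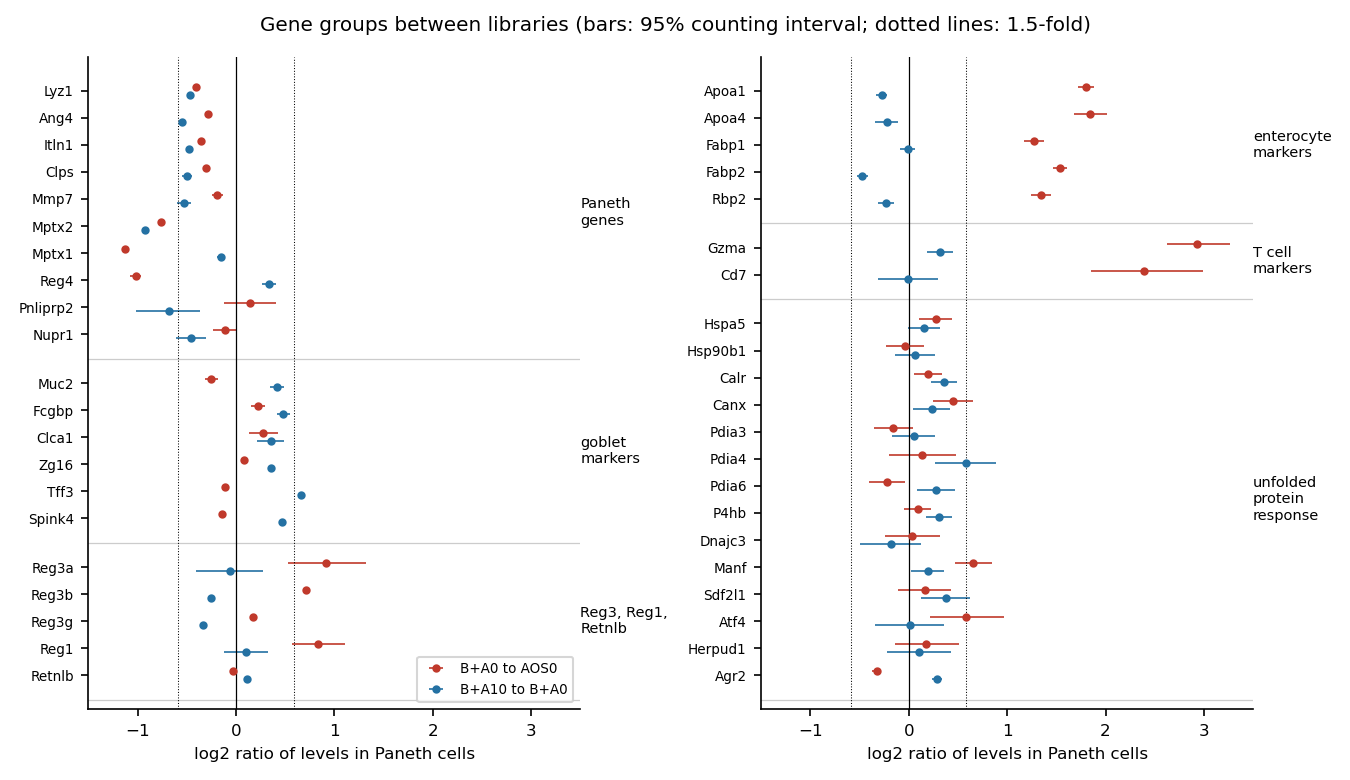
Log2 ratios of levels in Paneth cells (horizontal) for B+A0 to AOS0 (red) and B+A10 to B+A0 (blue), by gene group, with 95% counting intervals and dotted lines at 1.5-fold. Of the 10 Paneth genes, all but Pnliprp2 lie below 0 in the first comparison and all but Reg4 in the second, and the enterocyte and T cell markers lie past 1.5-fold higher in the first and within 1.5-fold in the second.

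Of the genes listed for the support of stem cells by Paneth cells, no Wnt, Egf family or Notch ligand was deep enough to compare. Of the 15 genes in this list, 1 could be compared between libraries: Cd24a, a surface glycoprotein of Paneth cells and not a secreted signal. It stood at 13.2 (12.5 to 13.9), 12.2 (11.7 to 12.7) and 10.8 (10.1 to 11.5) in AOS0, B+A0 and B+A10, 8.37-fold to 9.10-fold over other cells. Wnt3, a ligand that Paneth cells give to stem cells, stood at 0.735 (0.579 to 0.920), 0.503 (0.407 to 0.615) and 0.460 (0.329 to 0.627), and at 0.0341, 0.0291 and 0.0272 in other cells. Its intervals overlapped from library to library. Egf had 2, 3 and 0 UMIs in members of these libraries, and Wnt9b and Wnt11 had 0, which allows up to 0.0357, 0.0195 and 0.0425 UMIs per 10000 of the rest.

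Of 13 transcription factors of the secretory lineage, 2 could be compared. Sox9, which Paneth cell formation requires, stood at 1.70 (1.46 to 1.97), 1.30 (1.15 to 1.48) and 2.05 (1.76 to 2.37) and Foxa3 at 1.82, 1.47 and 1.80. Sox9 was the 1 of 2 past 1.5-fold higher in B+A10 than in B+A0, at 0.65 (0.37 to 0.94), beside 2.2% of all genes. Bhlha15 (Mist1), a regulator of secretory capacity, had 134 UMIs and stood 14.2-fold to 25.3-fold over other cells. Atoh1, which commits cells to the secretory lineage, stood 1.70-fold to 3.11-fold over other cells. Members held less Atoh1 than goblet cells, with 0.996, 0.863 and 1.31 in AOS0, B+A0 and B+A10 against 1.77, 1.63 and 1.63. Foxa3 was higher in goblet cells too (2.12, 1.96 and 2.11), while Bhlha15 was lower there (0.0247, 0.0485 and 0.0529).

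Of 27 genes of the unfolded protein response, which serves cells with heavy secretion, 14 could be compared between B+A0 and AOS0. Manf (2.94 and 4.63) and Atf4 (0.783 and 1.18) were past 1.5-fold higher, 2 of 14 where 12.8% of all genes were, none was lower, and the median was 0.15, beside 0.18 over all genes. Between B+A10 and B+A0 none of 14 was past 1.5-fold and the median was 0.21, beside -0.01. The chaperone Hspa5 (BiP) stood at 4.09, 4.95 and 5.50 in AOS0, B+A0 and B+A10. None of 14 genes of translocation and granule secretion was past 1.5-fold in either comparison, with medians of 0.02 and 0.11, nor was any of 3 autophagy genes, with 0.21 and 0.05. Of 3 immediate early and heat shock genes, the chaperone gene Hspa8 was past 1.5-fold higher in B+A0 (3.31 and 6.13), beside the same 12.8%, and in other cells it stood at 6.48 and 11.4. The 9 antigen presentation and interferon genes compared between B+A0 and AOS0 had a median of 0.29 with none past 1.5-fold. Between B+A10 and B+A0 the interferon-induced gene Ifit1 was the 1 of 10 past 1.5-fold (0.943 in B+A0 and 1.51 in B+A10), beside 2.2% of all genes. In other cells Ifit1 stood at 2.26 and 3.67, a log2 ratio of 0.70 beside 0.68 in members. None of 21 p53 target genes reached 300 UMIs in any comparison, and the list summed to 4.34, 4.70 and 4.93 in members against 6.90, 5.91 and 5.96 in other cells.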

How the data were processed

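The authors made the counts with Cell Ranger 2.2.0 on mm10, with a setting of 5000 cells a library (the table holds 5352 in B+A10), kept cells with at least 200 genes and genes in at least 3 cells, and deposited 1 table of 13891 genes and 12653 cells as the natural log of 1 plus UMIs per 10000. Taking the exponential gave whole UMIs (100% of values, within 0.01), 35258600, 26044400 and 23003100 (to 6 digits) in AOS0, B+A0 and B+A10. Mitochondrial genes were not analysed here.

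Levels are summed UMIs of members per 10000 UMIs left after the 24 defensin rows. Ratios between libraries have intervals from the exact binomial of both UMI counts, levels have exact Poisson and shares exact binomial (Clopper-Pearson) intervals. Only genes with 300 UMIs in the members of both libraries together were compared, and a gene was counted past a fold of 1.5 with no test. PCR duplicates are removed by UMIs, but cells of 1 library are not replicates. Doublets were scored with the Scrublet method in scanpy 1.11.5 (30 components), and since its automatic threshold marked 7, 4 and 4 cells, all cells were kept. Sequences were aligned with biopython 1.88. The ratio script was tested on simulated data.

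Named genes were the marker and list genes, defensin rows with at least 1% of defensin UMIs, the 20 genes with the largest ratio of members to other cells, and in each comparison the 10 genes at either end among those with a UMI in at least 10% of members of the higher library. The members and lists were chosen with earlier results of these data known. Genes named outside that rule, such as Gm7849, were chosen after their values were seen. Positions are from GENCODE vM21.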

Additional observations from a re-analysis of the deposited data

How the results depend on the processing

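No paired analysis was possible because each group had 1 library. In AOS0, B+A0 and B+A10 the Paneth cell share was 3.24%, 6.64% and 4.47% at a threshold of 1000, 1.997%, 5.01% and 2.71% at 3000 and 1.46%, 3.60% and 1.92% at 5000 (chosen after seeing the data), with B+A0 highest and AOS0 lowest at each. The defensin share of members was 55.8%, 56.8% and 56.5%, then 64.4%, 61.2% and 66.9%, then 68.9%, 65.1% and 71.3% at these thresholds, so the order of the libraries in it depends on the threshold. As a median over members it was 55.8%, 56.2% and 55.4%, without the highest 5% of doublet scores 59.98%, 59.2% and 61.5%, and without the tenth of members richest in enterocyte markers 60.1%, 59.3% and 62.0%.

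The numbers of genes past the fold were 136, 30 and 89 for B+A0 against AOS0, B+A10 against B+A0 and B+A10 against AOS0. They were 28, 9 and 43 with members thinned to 2000 UMIs of the rest (7, 7 and 33 members left out), which left 217, 258 and 207 genes, 490, 161 and 321 with a minimum of 100 UMIs, and 49, 2 and 27 at a fold of 2. In members with a Defa sum of 5000 or more they were 147 of 561 genes (26.2%), 6 of 587 (1.02%) and 99 of 332 (29.8%). The cause was not tested. Scaled to the sum of Lyz1, Ang4, Itln1, Clps and Mmp7 (also chosen after seeing the data), the log2 ratio of B+A10 to AOS0 turned to 0.16 for Reg4 and 0.23 for Mt1, and with a threshold of 1000 to -0.023 for Clca1. These 3 were past 1.5-fold as reported. Of all 2775 log2 ratios of named genes under the alternatives, 261 changed sign, 77 of them under the scaling to those 5 genes, and 258 of the 261 lay within 1.5-fold as reported. Under that scaling 100 of 109, 107 of 107 and 77 of 79 values left their counting interval with no change of sign past the fold in these 3 comparisons. With 1 library a group no value has a replicate check, and the low depth of B+A10 limits the genes compared.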
